A study of Mus musculus with 6 samples.

Results

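The 9 genes described here encode 6 matrix metalloproteinases, Mmp8, Mmp9, Mmp12, Mmp13, Mmp14 and Mmp19, and 3 of their tissue inhibitors, Timp1, Timp2 and Timp3. They were chosen by name as a protease and inhibitor family, with earlier results of these data known, from 56748 Ensembl genes in the deposited counts. The choice set no rule on their levels, and all 9 passed the filter on low counts that left 21849 genes tested. RNA-seq was performed on dendritic cells grown from bone marrow (BMDCs), with 3 libraries of WT mice and 3 of mice lacking Nfkb2 globally (Nfkb2-/-). Bone marrow was cultured for 9 days, the first 5 days with GM-CSF at 20 ng/mL and the last 4 days with GM-CSF and IL-4 at 10 ng/mL. No library was stimulated further, and no other allele or agent is named in the labels. The deletion was global, so the progenitors also lacked Nfkb2 throughout culture. Such cultures can hold macrophage-like and granulocytic cells beside dendritic cells. By flow cytometry, the paper reports mostly CD11c-positive cells under its protocol and no macrophage-like cells high in CD115, the product of Csf1r. The question put to the 9 genes was whether their basal mRNA levels differed between WT and Nfkb2-/- BMDCs.

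Matrix metalloproteinases are zinc-dependent endopeptidases that are made as inactive proenzymes and cleave collagens, elastin and other matrix proteins as well as cytokines and their receptors once the propeptide is removed. TIMPs bind the active site of these enzymes and block them. In myeloid cells, Mmp8 and Mmp9 are known as granule enzymes of neutrophils, Mmp12 as the elastase of macrophages, and Mmp9 and Mmp14 as enzymes that help dendritic cells move through matrix. Nfkb2 encodes p100, the precursor of the p52 subunit of noncanonical NF-κB.

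Total counts lay between 29863927 and 55623068 per library, so that 1 count was worth between 0.0187 and 0.0344 CPM (counts scaled to library size, here with edgeR's TMM factors). The lowest count of any of the 9 genes in any library was 54. The part of count sampling in the spread between libraries was not tested. Nfkb2 measured 154 to 355 CPM in WT and 32.3 to 44.8 CPM in Nfkb2-/- libraries (log2 fold change -2.72, SE 0.33, edgeR adjusted p = 0.0307). Of 9 dendritic cell markers, including Itgax, H2-Aa and Cd74, none was at 0 in any library. Nfkb2-/- replicate 1 and WT replicate 3 stood apart. The former had 47952 genes with a count, against 27692 to 33841 in the others, although none of the 9 genes had its highest level there. The latter had 11 of 12 macrophage markers at or below 25% of the mean of WT replicates 1 and 2. The 12 markers together measured 2240, 2315 and 704 CPM in WT replicates 1, 2 and 3 and 2865 to 3816 CPM in Nfkb2-/- libraries, and none was at 0. Chil3, an alternatively activated macrophage gene, measured 539 to 1151 CPM in WT and 2188 to 3072 CPM in Nfkb2-/- libraries. It made up most of the sum in every library but WT replicate 2. Without Chil3, left out after its values were seen, the other 11 summed to 1089, 1230 and 165 CPM in WT and to 677 to 872 CPM in Nfkb2-/- libraries. Of the 12 markers, 6 had a log2 fold change above 0 and 6 below, with a median of 0.02 and 0 called by edgeR (3 with an unadjusted p under 0.05), among them Apoe, an apolipoprotein of macrophages, at -5.21 (edgeR adjusted p = 0.077). Results that rest on WT replicate 3 are therefore given with and without it.

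Mmp12 was the most abundant of the 9 mRNAs in each library. Per kilobase of exon as annotated in GENCODE M21, which may differ from the annotation used for counting, its mean level over the 6 libraries was 330.4 CPM, followed by Mmp8 at 31.5, Timp2 at 11.2, Mmp13 at 9.66, Mmp19 at 8.62, Timp1 at 3.86, Timp3 at 3.72, Mmp9 at 3.26 and Mmp14 at 2.12 CPM per kb. All neighbours in this order overlapped in their ranges over libraries. In WT BMDCs the mean was 159.5 CPM per kb for Mmp12 and 45.2 CPM per kb for Mmp8. In Nfkb2-/- BMDCs it was 501 CPM per kb for Mmp12 and 17.8 CPM per kb for Mmp8.

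**Figure D1:**
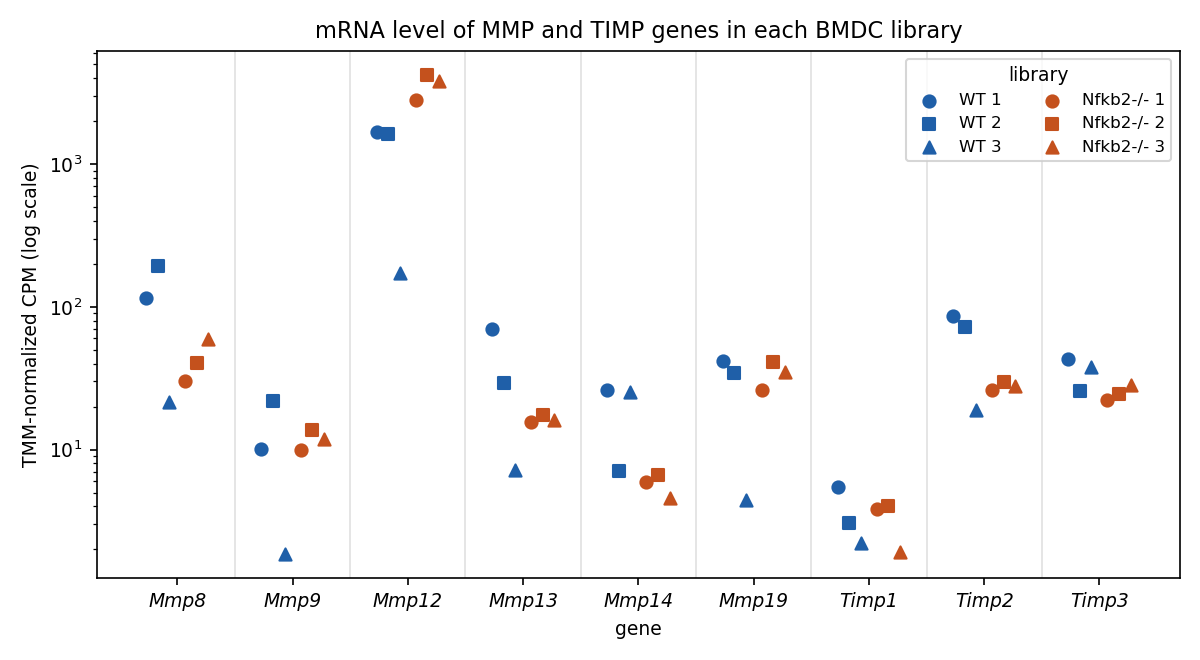
TMM-normalized CPM (log axis) of the 9 genes in each of the 6 BMDC libraries, with WT in blue and Nfkb2-/- in orange and the marker shape giving the replicate number. WT replicate 3 (blue triangle) is the lowest point for 6 of the 9 genes, and the genotypes do not overlap for Mmp12 and Mmp14.

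None of the 9 genes was called differentially expressed, which required an edgeR p-value under 0.05 after adjustment over the whole table (quasi-likelihood test) and a fold change over 1.2. By the same rule, 1.14% of all genes tested were called, 0.453% higher and 0.682% lower in Nfkb2-/- BMDCs. Of the 9 genes, 1, Mmp14, had an unadjusted p under 0.05 with edgeR, where 17.1% of all genes did. With DESeq2, Mmp14 was the 1 member called, against 8.65% of all genes. The WT and Nfkb2-/- libraries did not overlap for Mmp12 and Mmp14, 2 of 9 genes, against 24.7% of all genes tested. The log2 fold change was above 0 for 3 of the 9 genes and below 0 for 6, or 66.7%, with a median of -0.52, beside 44.3% below 0 and a median of 0.08 over all genes tested. The 9 genes were chosen with results known, so nothing particular to them is read from these shares. Without WT replicate 3, 1 of the 9 genes was called, against 1.27% of all genes, 5 had an unadjusted p under 0.05 with edgeR, against 16.5%, and 5 did not overlap, against 35.2%.

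Mmp12 (ENSMUSG00000049723; chr9:7344381-7369499, plus strand, GRCm38) encodes macrophage elastase, which degrades elastin. It measured 1670, 1620 and 172.5 CPM in WT replicates 1, 2 and 3 and 2819, 4224 and 3842 CPM in Nfkb2-/- replicates 1, 2 and 3. Every Nfkb2-/- library lay above every WT library, and WT replicate 3 lay far below the rest. Mean levels were 1154 ± 851 CPM (SD, n = 3) in WT and 3628 ± 726 CPM (SD, n = 3) in Nfkb2-/- BMDCs, with the smallest p that 3 against 3 libraries allow (exact permutation test, two-sided, p = 0.1). The log2 fold change was 1.65 (95% interval -0.04 to 3.34, adjusted p = 0.306 from edgeR). Without WT replicate 3 the log2 fold change was 1.14 (95% interval 0.59 to 1.70, adjusted p = 0.0758 from edgeR), so the estimate was smaller and its interval narrower. Over 11 alternatives the adjusted p-values ran from 0.0144, without a filter on low counts, to 0.487. Mmp1b overlaps the end of Mmp12 on the other strand but held at most 96 counts in a library, and whether the authors counted by strand is not given in the sources used here.

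Mmp14 (ENSMUSG00000000957; chr14:54431612-54445364, plus strand) encodes the membrane-bound MT1-MMP, which cleaves fibrillar collagen and activates proMmp2 at the cell surface. Its levels were 26.2, 7.11 and 25.4 CPM in WT replicates 1, 2 and 3 and 5.88, 6.63 and 4.58 CPM in Nfkb2-/- replicates 1, 2 and 3. All Nfkb2-/- libraries lay below all WT libraries, but WT replicate 2 was within 1 CPM of the highest Nfkb2-/- library. Mean levels were 19.6 ± 10.8 CPM (SD, n = 3) in WT and 5.70 ± 1.03 CPM (SD, n = 3) in Nfkb2-/- BMDCs, for which a two-sided exact permutation test also gave p = 0.1. The log2 fold change was -1.78 (95% interval -2.89 to -0.68, adjusted p = 0.123 from edgeR), and the adjusted p-value was 0.00407 with DESeq2. Leaving out WT replicate 2 gave a log2 fold change of -2.18 with an adjusted p-value of 0.00716 (edgeR), and over 11 alternatives the adjusted p-values ran from 3.24e-08, without a filter on low counts, to 0.381. Mmp14 was 1 of 2 members, with Timp3, that were not low in WT replicate 3, where it reached 152% of the mean of WT replicates 1 and 2.

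The collagenases Mmp8 and Mmp13 both cleave fibrillar collagens. Mmp8 (ENSMUSG00000005800; chr9:7558456-7568485, plus strand) measured 115, 193 and 21.4 CPM in WT and 30.04, 40.1 and 59.3 CPM in Nfkb2-/- libraries. Mmp13 (ENSMUSG00000050578; chr9:7272514-7283331, plus strand) measured 69.4, 29.2 and 7.23 CPM in WT and 15.5, 17.5 and 16.1 CPM in Nfkb2-/- libraries. For both genes WT replicates 1 and 2 were above, and WT replicate 3 below, every Nfkb2-/- library. Their log2 fold changes were -1.35 (95% interval -2.94 to 0.25, adjusted p = 0.374) and -1.11 (95% interval -2.67 to 0.45, adjusted p = 0.451) from edgeR. Without WT replicate 3 they were -1.83 (adjusted p = 0.0646) and -1.59 (adjusted p = 0.0896), with intervals of -2.64 to -1.02 and -2.41 to -0.77 (edgeR). Leaving out another WT library gave smaller estimates. Mmp8 was at -0.66 without WT replicate 2 (adjusted p = 0.644, edgeR), and Mmp13 at -0.15 without WT replicate 1 (adjusted p = 0.936, edgeR). Over 11 alternatives the adjusted p-values ran from 1.22e-04 to 0.644 for Mmp8 and from 0.00107 to 0.936 for Mmp13, lowest without a filter on low counts.

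Mmp9 and Mmp19 had the smallest estimates among the metalloproteinases, with wide intervals. Mmp9 (ENSMUSG00000017737; chr2:164940780-164955850, plus strand) is gelatinase B, which cleaves denatured collagen and type IV collagen of basement membranes. It measured 10.0, 21.9 and 1.86 CPM in WT and 9.93, 13.8 and 11.8 CPM in Nfkb2-/- libraries, with a log2 fold change of 0.07 (95% interval -1.57 to 1.71, adjusted p = 0.971 from edgeR). Mmp19 (ENSMUSG00000025355; chr10:128790910-128800824, plus strand), which cleaves basement membrane proteins, measured 41.6, 34.6 and 4.41 CPM in WT and 26.1, 40.9 and 35.1 CPM in Nfkb2-/- libraries. Its log2 fold change was 0.34 (95% interval -1.23 to 1.91, adjusted p = 0.833 from edgeR). The WT range enclosed the whole Nfkb2-/- range for Mmp9 and Mmp19. Without WT replicate 3 the log2 fold changes were -0.43 (95% interval -1.24 to 0.39, adjusted p = 0.606, edgeR) for Mmp9 and -0.16 (95% interval -0.70 to 0.38, adjusted p = 0.781, edgeR) for Mmp19. These intervals still allow changes of more than 1.2-fold in either direction.

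Of the inhibitors, Timp2 was the most abundant per kilobase in both genotypes. Timp2 (ENSMUSG00000017466; chr11:118301069-118355740, minus strand) inhibits most matrix metalloproteinases and takes part with Mmp14 in the activation of proMmp2. It measured 86.2, 72.5 and 18.8 CPM in WT and 26.3, 29.9 and 27.8 CPM in Nfkb2-/- libraries. As for the collagenases, WT replicates 1 and 2 lay above and WT replicate 3 below all Nfkb2-/- libraries. The log2 fold change was -1.08 (95% interval -2.22 to 0.06, adjusted p = 0.320 from edgeR). Without WT replicate 3 it was -1.50 (95% interval -1.86 to -1.14, adjusted p = 0.0221 from edgeR), and Timp2 was then the 1 member called, where 1.27% of all genes were. Over 11 alternatives its adjusted p-values ran from 0.00177, without a filter on low counts, to 0.652, without WT replicate 1, where the log2 fold change was -0.71 (edgeR).

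Timp3 (ENSMUSG00000020044; chr10:86300372-86349506, plus strand) encodes the inhibitor that stays bound to matrix and also blocks Adam17. It measured 43.4, 25.7 and 38.1 CPM in WT and 22.1, 24.5 and 28.2 CPM in Nfkb2-/- libraries, with WT replicate 2 inside the Nfkb2-/- range. The log2 fold change was -0.52 (95% interval -1.04 to 0.003, adjusted p = 0.295 from edgeR). Timp1 (ENSMUSG00000001131; chrX:20870166-20874735, plus strand), a secreted inhibitor that also binds the tetraspanin Cd63, measured 5.46, 3.08 and 2.20 CPM in WT and 3.84, 4.05 and 1.91 CPM in Nfkb2-/- libraries. Its libraries overlapped, with a log2 fold change of -0.14 (95% interval -1.14 to 0.86, adjusted p = 0.894 from edgeR). Both genes lie inside synapsin genes of the other strand. Syn1, around Timp1, held 807 to 1677 counts in WT and 2786 to 3856 counts in Nfkb2-/- libraries (log2 fold change 1.25, adjusted p = 0.0420 from edgeR), against 64 to 230 counts on Timp1 itself. Syn3, around Timp3, had a log2 fold change of -0.45 (adjusted p = 0.324 from edgeR). How reads in the shared stretches were assigned was not tested.

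**Figure D2:**
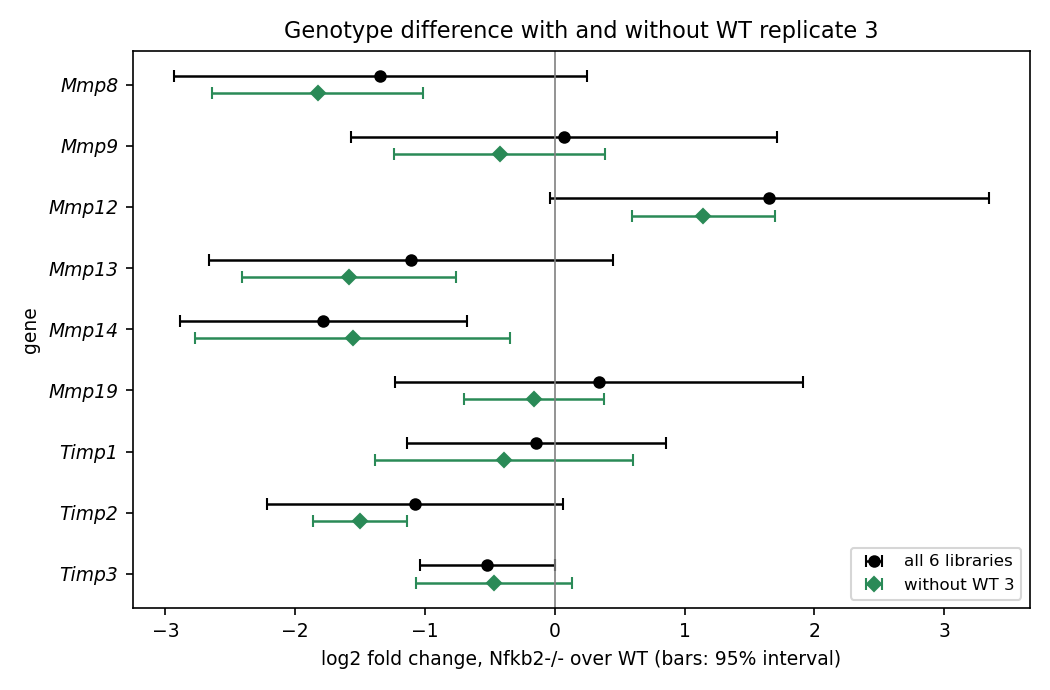
log2 fold change (Nfkb2-/- over WT) of the 9 genes from edgeR with all 6 libraries (black circles) and without WT replicate 3 (green diamonds). Bars are 95% intervals. Without WT replicate 3 the intervals of Mmp8, Mmp12, Mmp13, Mmp14 and Timp2 lie on one side of 0, and with all libraries that of Mmp14 alone does.

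With all 6 libraries, the spread among WT libraries was larger than among Nfkb2-/- libraries for all 9 genes. This rested on WT replicate 3 for Mmp12 and Mmp19. WT replicates 1 and 2 alone lay closer together than the Nfkb2-/- libraries for these, as with 1670 and 1620 CPM for Mmp12, although a pair was set against 3 libraries. The share of all genes with a larger spread in WT was not computed. The highest WT level was 8.99 to 11.8 times the lowest for Mmp8, Mmp9, Mmp12, Mmp13 and Mmp19 and 4.59 times for Timp2. Among Nfkb2-/- libraries this ratio was at most 2.13, for Timp1, and 1.13 and 1.14 for Mmp13 and Timp2. WT replicate 3 had the lowest level of the 6 libraries for 6 of the 9 genes, where 25.0% of all genes tested had theirs. There, Mmp12 was at 10.5% of the mean of WT replicates 1 and 2, Mmp9 at 11.6%, Mmp19 at 11.6%, Mmp8 at 13.9%, Mmp13 at 14.7%, Timp2 at 23.7% and Timp1 at 51.6%. The median over the 9 genes was 14.7%, beside 97.1% over all genes tested. The macrophage markers Adgre1, Csf1r and C1qb were at 13.7%, 15.2% and 12.1% on the same measure, and 4.26% of 10646 genes averaging 5 CPM or more were at or below 25%. Ccr7 and Fscn1, markers of mature dendritic cells, reached 1897 and 1853 CPM in WT replicate 3, the highest of the 6 libraries. Ccl22, Cd83 and Cd40 of the same 8 markers were also highest there. Ccl17 and Cd86 were highest in Nfkb2-/- replicate 2, and Il4i1 was lowest in WT replicate 3, at 0.654 CPM. On the measure above, the dendritic cell markers ran from 18% (Cd209a) to 171% (Cd74). Fewer macrophage-like cells and less mRNA per cell cannot be told apart in such bulk libraries, and the part of cell composition in the 9 genes' levels was not tested.

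**Figure D3:**
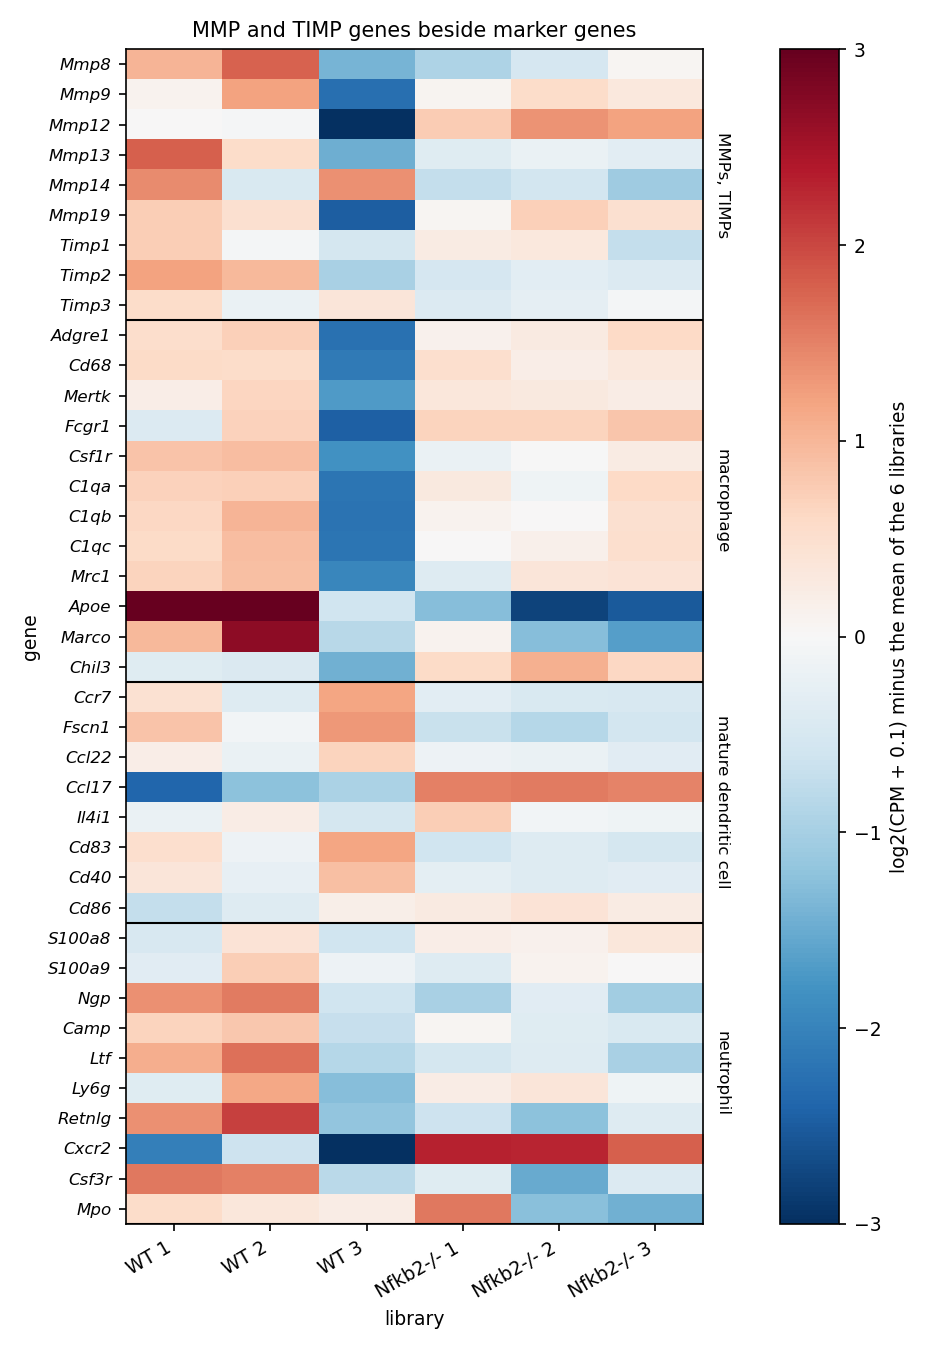
Deviation of log2(CPM + 0.1) from the mean of the 6 libraries for the 9 genes and for markers of macrophages, mature dendritic cells and neutrophils that were tested. Columns are libraries, red is above and blue below the mean, and the color scale stops at -3 and 3. WT replicate 3 is blue for Mmp8, Mmp9, Mmp12, Mmp13, Mmp19, Timp1 and Timp2 and red for Mmp14, Ccr7 and Fscn1. It is also blue for all 12 macrophage markers, of which 10 had their lowest level there.

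For Mmp8 and Mmp9, known from neutrophil granules, the neutrophil markers were also read. The 10 markers summed to 175, 259 and 88.6 CPM in WT replicates 1, 2 and 3 and to 195 to 217 CPM in Nfkb2-/- libraries. Cxcr2, a chemokine receptor of neutrophils, measured 4.41, 11.97 and 1.31 CPM in WT and 93.1, 91.5 and 65.1 CPM in Nfkb2-/- libraries (log2 fold change 3.82, edgeR adjusted p = 0.0568). The other 9, with Cxcr2 left out after its values were seen, summed to 171, 247 and 87.3 CPM in WT and to 122 to 130 CPM in Nfkb2-/- libraries, and 8 of them had a log2 fold change below 0. None of the 10 was at 0 in any library, and 0 were called with edgeR, 5 having an unadjusted p under 0.05. Like Mmp8, the granule gene Ngp measured 70.7, 80.5 and 18.0 CPM in WT and 13.1 to 21.6 CPM in Nfkb2-/- libraries, while S100a8 measured 49.6 to 98.8 CPM in WT and 81.3 to 94.4 CPM in Nfkb2-/- libraries. Fibroblasts are known for Mmp14, Timp2 and Timp3. Their markers summed to 27.7, 8.25 and 3.03 CPM in WT and to 4.72 to 18.7 CPM in Nfkb2-/- libraries, with 0 of 7 tested called, 1 having an unadjusted p under 0.05 (edgeR), and Lum at 0 counts in 4 libraries. Osteoclast markers, a lineage known for Mmp9 and Mmp14, summed to 294, 311 and 47.2 CPM in WT and to 309 to 393 CPM in Nfkb2-/- libraries, with all 5 tested lowest in WT replicate 3 and Calcr at 0 counts in 2 libraries. Atp6v0d2 made up most of each sum. Of the 5, 4 had a log2 fold change above 0. Ocstamp (0.207 to 0.708 CPM in WT, 4.57 to 7.33 CPM in Nfkb2-/-) and Dcstamp (4.44 to 38.4 and 58.3 to 82.8 CPM) did not overlap, and Ctsk was at -0.29. Over all marker lists, Itgax, Ccl17 and Ocstamp were called higher and the mast cell gene Cpa3 lower in Nfkb2-/- BMDCs (edgeR). The part of these cell types in the levels of the 9 genes was not tested.

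To describe the balance of enzymes and inhibitors, CPM per kb were summed within each library, with no test since the sum is over chosen genes. The 6 metalloproteinases summed to 323, 332 and 41.4 CPM per kb in WT and to 419, 623 and 575 CPM per kb in Nfkb2-/- libraries. Mmp12 alone made up 57.5% to 71.4% of this sum in WT and 92.3% to 93.6% in Nfkb2-/- libraries. Without Mmp12 the other metalloproteinases summed to 92.3, 107.6 and 17.6 CPM per kb in WT and to 29.4, 39.7 and 44.5 CPM per kb in Nfkb2-/- libraries, so these sums overlapped through WT replicate 3 and did not without it. The 3 TIMPs summed to 33.6, 25.2 and 11.98 CPM per kb in WT and to 13.8, 15.3 and 12.8 CPM per kb in Nfkb2-/- libraries, where WT replicates 1 and 2 lay above and WT replicate 3 below. The ratio of the 6 metalloproteinases to the 3 TIMPs in mRNA was 9.62, 13.1 and 3.46 in WT and 30.4, 40.9 and 45.1 in Nfkb2-/- libraries. Without Mmp12 it was 2.75, 4.26 and 1.47 in WT and 2.13, 2.60 and 3.49 in Nfkb2-/- libraries, so that the genotypes overlapped in this ratio, with or without WT replicate 3, and did not in the first. These sums leave out Mmp25, a metalloproteinase outside the chosen genes that averaged 165.6 CPM per kb in WT and 48.1 in Nfkb2-/- libraries. The ratios hold for the chosen genes only, and ratios with Mmp25 were not computed.

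**Figure D4:**
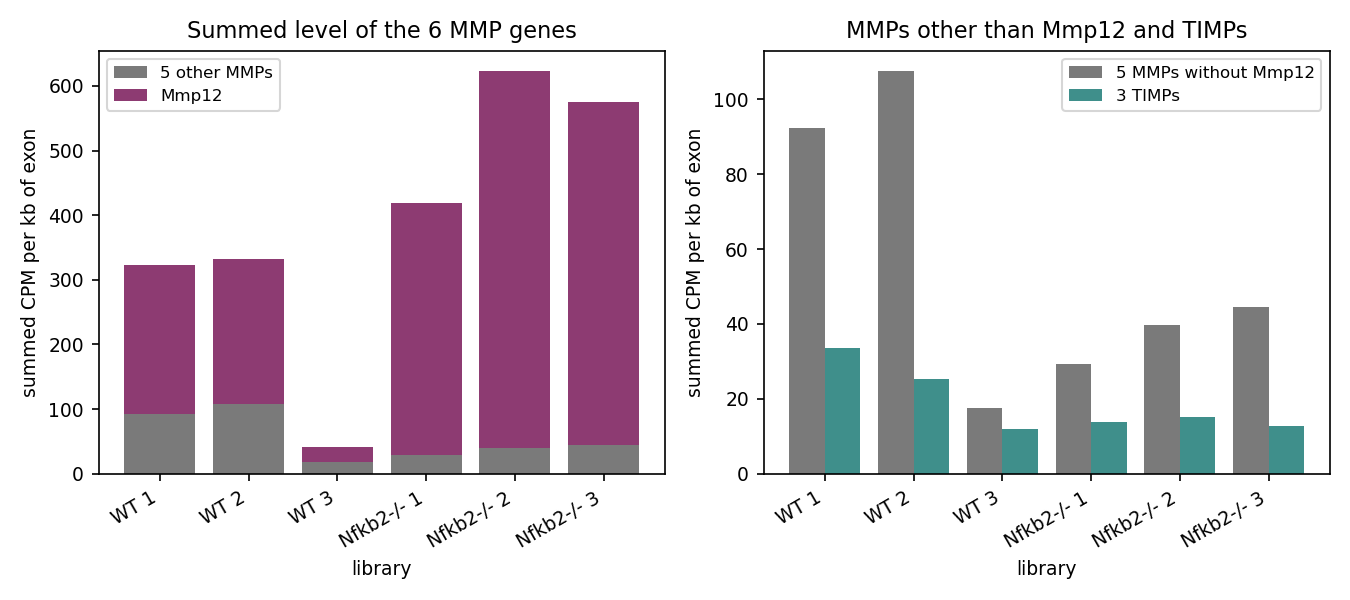
Summed CPM per kb of exon in each library. On the left, Mmp12 (purple) is stacked on the other 5 metalloproteinases (grey), and on the right those 5 stand beside the 3 TIMPs (green). Mmp12 makes up at least 92.3% of the stack in Nfkb2-/- libraries and at most 71.4% in WT libraries.

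Mmp8, Mmp12 and Mmp13 lie in a group of 10 metalloproteinase genes on chromosome 9 (chr9:7272514-7699585, GRCm38), of which 6 were tested. The estimates of the group did not share one direction, and none of its genes was called with edgeR. Mmp12, with a positive estimate, lies next to Mmp13, with a negative one. Mmp3, Mmp1a, Mmp10 and Mmp7 had too few counts to be tested, at or below 0.355 CPM in every library, and their highest level was in Nfkb2-/- replicate 1. Mmp1b, beside Mmp12, measured 0.403, 0.769 and 0.0344 CPM in WT and 0.739, 1.19 and 1.80 CPM in Nfkb2-/- libraries, low in WT replicate 3 like its neighbour.

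The upstream sequences of Mmp12, Mmp13 and Mmp14 are shown because the estimates of these genes differ in direction and because metalloproteinase promoters are known for sites of AP-1, the Fos and Jun family of transcription factors. None of these genes was called by edgeR with all libraries, so the directions are those of the estimates only. RefSeq start sites on GRCm38.p6 were found for 7 of the 9 genes (not Mmp9 and Mmp19), with 2 for Mmp12. The 250 bases before each start site are given 5′ to 3′ on the plus strand. Capitals mark matches to the AP-1 motif TGANTCA or to the κB motif, both searched on both strands over a window of 300 bases that runs past the start site.
Mmp12, upstream start site, chr9:7344147-7344396: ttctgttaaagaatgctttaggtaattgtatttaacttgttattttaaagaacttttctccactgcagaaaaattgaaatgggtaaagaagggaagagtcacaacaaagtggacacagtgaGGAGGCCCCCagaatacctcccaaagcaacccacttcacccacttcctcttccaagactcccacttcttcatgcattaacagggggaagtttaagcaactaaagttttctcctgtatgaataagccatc
Mmp12, downstream start site, chr9:7347124-7347373: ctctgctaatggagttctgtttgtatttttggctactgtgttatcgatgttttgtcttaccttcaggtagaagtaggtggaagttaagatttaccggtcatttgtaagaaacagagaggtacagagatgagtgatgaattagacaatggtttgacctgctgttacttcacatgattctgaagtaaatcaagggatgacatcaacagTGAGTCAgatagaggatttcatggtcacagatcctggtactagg
Mmp13, chr9:7272264-7272513: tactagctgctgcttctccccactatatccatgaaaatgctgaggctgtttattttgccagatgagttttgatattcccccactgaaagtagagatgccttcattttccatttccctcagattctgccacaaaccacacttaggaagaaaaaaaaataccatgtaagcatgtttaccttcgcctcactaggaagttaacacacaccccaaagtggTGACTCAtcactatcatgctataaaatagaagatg
Mmp14, chr14:54431348-54431597: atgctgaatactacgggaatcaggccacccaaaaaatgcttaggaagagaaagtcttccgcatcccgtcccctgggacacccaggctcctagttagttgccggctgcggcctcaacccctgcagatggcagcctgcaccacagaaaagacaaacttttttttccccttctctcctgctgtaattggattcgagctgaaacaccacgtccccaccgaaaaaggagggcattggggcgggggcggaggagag
An AP-1 match was found 44 bases before the downstream start site of Mmp12 and 35 bases before that of Mmp13, and a κB match 129 bases before the upstream start site of Mmp12. The windows of Mmp8, Mmp14, Timp1, Timp2 and Timp3 held neither motif. Of all 32851 promoter windows, 7.81% held the AP-1 motif and 8.46% the κB motif. A match describes the letters of the window only. Any part of these motifs in the levels of the genes was not tested.

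Related genes were read from lists fixed by function. Of 18 other metalloproteinase and TIMP genes, 13 were tested and 0 were called with edgeR, 1 having an unadjusted p under 0.05. Mmp25, the leukocyte enzyme MT6-MMP that is anchored to the membrane, was that gene and the most abundant of them per kilobase. It measured 973, 457 and 1205 CPM in WT and 256, 261 and 249 CPM in Nfkb2-/- libraries, without overlap. Its log2 fold change was -1.78 (95% interval -2.58 to -0.99, adjusted p = 0.0604 from edgeR), the adjusted p-value was 1.81e-05 with DESeq2. Over the 6 fits that leave out a library it ran from 0.00688, without WT replicate 2, to 0.251, and it was under 0.05 in that 1 case (edgeR). Like Mmp14, and unlike Mmp8 and Mmp13, Mmp25 was high in WT replicate 3. Mmp23, next in abundance, measured 7.11 to 20.9 CPM in WT and 10.9 to 16.2 CPM in Nfkb2-/- libraries (log2 fold change 0.02, adjusted p = 0.984 from edgeR).

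Of the ADAM and ADAMTS proteases, relatives that shed membrane proteins or cleave proteoglycans, 11 of 13 were tested and 0 called, with a median log2 fold change of 0.07. Adam8 and Adam10, the most abundant per kilobase, had log2 fold changes of 0.02 and 0.04 (95% intervals -0.49 to 0.52 and -0.39 to 0.48). Of genes whose products activate proenzymes, 9 of 12 were tested and 0 called, with a median of 1.28, and 5 of the 9 had their highest level in Nfkb2-/- replicate 1. The median was the value of Prtn3, which held 33 counts there and at most 10 in any other library. Plau, the urokinase-type plasminogen activator, measured 12.03, 28.2 and 2.20 CPM in WT and 43.2, 52.6 and 46.2 CPM in Nfkb2-/- libraries, without overlap (log2 fold change 1.74, adjusted p = 0.283 from edgeR). Plau and Furin were the 2 genes with an unadjusted p under 0.05. Plaur, the urokinase receptor, measured 59.1, 73.8 and 6.33 CPM in WT and 57.8 to 79.1 CPM in Nfkb2-/- libraries (log2 fold change 0.62, adjusted p = 0.693 from edgeR), with its low value in WT replicate 3. Furin, which removes the propeptide of Mmp14, had a log2 fold change of 0.37 (95% interval 0.01 to 0.74, adjusted p = 0.284 from edgeR). Of other protease inhibitors, 7 of 8 were tested and 0 called, 1 having an unadjusted p under 0.05 with edgeR. That gene was Reck, a membrane-anchored inhibitor of metalloproteinases, at 6.41, 5.35 and 6.33 CPM in WT and 3.66, 3.26 and 2.56 CPM in Nfkb2-/- libraries, without overlap (log2 fold change -0.93, 95% interval -1.45 to -0.42, adjusted p = 0.0959 from edgeR). Cst3, the cysteine protease inhibitor cystatin C, and Serpinb2, the plasminogen activator inhibitor of myeloid cells, had log2 fold changes of 0.49 and 0.46.

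Surface partners of these proteins gave 0 calls among 10 tested, with a median log2 fold change of -0.05 and 3 genes with an unadjusted p under 0.05 (edgeR). Cd63, the partner of Timp1, measured 294, 220 and 306 CPM in WT and 150, 150 and 163 CPM in Nfkb2-/- libraries, without overlap (log2 fold change -0.82, adjusted p = 0.0717 from edgeR). The others were Itgb3, the integrin β3 chain, at 0.98 (adjusted p = 0.126) and Lcn2, a lipocalin that binds Mmp9, at -1.57 (adjusted p = 0.247), both on the log2 scale from edgeR. Cd44, a docking site of Mmp9, had a log2 fold change of -0.06 (95% interval -0.52 to 0.40) and Itgb1, the integrin β1 chain, one of -0.04 (95% interval -0.69 to 0.61). Among 15 matrix substrates tested, 0 were called with edgeR, 3 having an unadjusted p under 0.05. Thbs1, which encodes thrombospondin-1, measured 1330, 962 and 504 CPM in WT and 156, 222 and 282 CPM in Nfkb2-/- libraries, without overlap (log2 fold change -2.08, 95% interval -2.99 to -1.18, adjusted p = 0.0568 from edgeR and 4.64e-06 with DESeq2). Over those 6 fits the adjusted p of Thbs1 ran from 0.0328, without WT replicate 3, to 0.252, and it was under 0.05 in that 1 case (edgeR). The other substrates with an unadjusted p under 0.05 were Fn1, fibronectin, at a log2 fold change of -1.70 (adjusted p = 0.245, edgeR) and Vcan, versican, at 0.83 (adjusted p = 0.269, edgeR). Spp1, which encodes osteopontin, a substrate of several metalloproteinases, measured 69.0, 133 and 12.5 CPM in WT and 168, 260 and 229 CPM in Nfkb2-/- libraries, the same order of groups as Mmp12 (log2 fold change 1.62, adjusted p = 0.300 from edgeR). Of AP-1, ETS and related factors, 11 of 12 were tested and 0 called, 4 having an unadjusted p under 0.05. Ets2 measured 127 to 217 CPM in WT and 73.6 to 80.7 CPM in Nfkb2-/- libraries (log2 fold change -1.14, 95% interval -1.64 to -0.65, adjusted p = 0.0559 from edgeR and 1.19e-04 with DESeq2). Over the same 6 fits its adjusted p ran from 0.0158, without WT replicate 2, to 0.242 (edgeR). The others were the AP-1 subunits Jun at -0.50 and Jund at 0.87 and the ETS factor Etv5 at 1.92 on the log2 scale, with edgeR adjusted p-values of 0.140, 0.0947 and 0.222. Junb, an AP-1 subunit, measured 44.5 to 81.2 CPM in WT and 42.1 to 51.8 CPM in Nfkb2-/- libraries (log2 fold change -0.32, adjusted p = 0.537 from edgeR).

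The genes whose log2 CPM ran most like each member over the 6 libraries were picked from 10645 or 10646 candidates averaging 5 CPM or more. As a measure of likeness with no test, the Pearson r was 0.996 with Lpl and 0.993 with Dcstamp for Mmp12, and 0.999 with Zranb3 and 0.997 with Msr1 for Mmp19. For Mmp9 it was 0.999 with Ctdspl and 0.997 with Fry, and for Mmp8 0.995 with Mettl21c and 0.994 with Cd28. Mmp13 was most like Colec12 (0.976) and Fth1 (0.973), and Mmp14 most like Plscr4 (0.997) and Peak1 (0.992). Among the inhibitors, Timp2 was most like Gm37314 (0.997) and Adcy9 (0.992), Timp3 most like Arl4a (0.993) and Tsc22d1 (0.987), and Timp1 most like Dnmbp (0.955) and Nfix (0.952). All values rest on the same 6 libraries, and 6 of the 9 members had their lowest level in WT replicate 3.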

How the data were processed

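Poly(A) RNA of 3 WT and 3 Nfkb2-/- BMDC libraries was sequenced, and the authors deposited raw read counts per Ensembl gene for each library, without normalization. The submitters' processing notes name HISAT2 and GRCm38 (mm10). The counting tool, annotation release and use of strand are not given in the sources used here, so overlapping genes are uncertain. Names, positions and exonic lengths (union of exons) came from GENCODE M21 (GRCm38), which names 52073 of 56748 IDs. Counts on the other IDs (1.01% to 1.75% of a library) were left out. Of these IDs, 2147 are numbered as in later releases, so M21 lengths and overlaps, and the values per kb, may differ from what was counted. Genes whose counts summed to 50 or more were tested with edgeR 4.0.16 in R 4.3.3 (TMM, glmQLFit, glmQLFTest, no covariates, Benjamini-Hochberg adjustment, common dispersion 0.219). Called genes had an adjusted p under 0.05 and a fold change over 1.2. SE is the log2 fold change over the square root of F, and 95% intervals use edgeR's total degrees of freedom. CPM are TMM-normalized. Libraries follow the sample titles. The labels and methods speak of triplicates, and p-values measure the spread between these libraries.

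Alternatives were DESeq2 1.42.0, RLE or no scaling factors, no low-count filter, a replicate block and each library left out. Both tests were tested on simulated counts. The 9 genes, the lists and the tests were chosen with earlier results of these data known. Named genes were the 9 members, Nfkb2, up to 4 of the most abundant genes per kilobase of each list with any called, and the 2 genes most like each member. Genes that overlap a member, chromosome 9 neighbours, markers and listed genes with an unadjusted p under 0.05 beyond the rule were named after their values were seen.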

Additional observations from a re-analysis of the deposited data

How the results depend on the processing

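With 248 genes called over the whole table, the count was 239 with RLE factors and 247 with total counts, 1890 with DESeq2 and 1625 when any gene with a count was tested. It ran from 0 to 1248 with 1 library left out: 0 without WT replicate 1 or any Nfkb2-/- replicate, 1248 without WT replicate 2 and 270 without WT replicate 3. Of the 9 genes, 0 were called with all libraries in edgeR, 1 with DESeq2 (Mmp14) and 5 without the filter (Mmp8, Mmp12, Mmp13, Mmp14 and Timp2). With 1 library left out, 0 to 1 were called: Mmp14 without WT replicate 2 and Timp2 without WT replicate 3. The numbers of genes tested without the filter and without WT replicate 2 are not given here. The members called in those fits are therefore not set against a share of all genes. The cause of the higher counts was not tested. With the replicate number as a block, 0 genes and 0 members were called. Same-numbered libraries had deviations from their genotype means that correlated at 0.262, 0.148 and 0.022. WT replicates 1 and 3 correlated best with the Nfkb2-/- replicate of the same number, and WT replicate 2 with Nfkb2-/- replicate 3 (0.164). These values do not settle whether the numbers pair the libraries, so the fit with the block is given beside the main fit without it. Signs of the log2 fold change turned with a library left out for Mmp9 (-0.43 to 0.98), Mmp19 (-0.16 to 0.80) and Timp1 (-0.39 to 0.30), whereas Mmp8, Mmp12, Mmp13, Mmp14, Timp2 and Timp3 kept theirs in all 11 alternatives. Small estimates of related genes also changed sign. Adam8 gave -0.005 with DESeq2 and with RLE factors and -0.065 without the filter, and Mmp23 -0.006, -0.005 and -0.082 in the same order. Itgb1 gave 0.071 with total counts and 0.021 with the replicate block, Cd44 0.006 with total counts and Adam10 -0.013 without the filter. With a library left out the ranges were -0.14 to 0.25 for Adam8, -0.26 to 0.61 for Mmp23, -0.22 to 0.32 for Itgb1, -0.207 to 0.087 for Cd44, -0.12 to 0.18 for Adam10 and -0.08 to 1.57 for Serpinb2. The summed level of the 9 genes was 2625 CPM on average over libraries, and 2669 CPM with total counts. Nfkb2 had adjusted p-values of 0.00707 to 0.163 with a library left out (edgeR). Each of the 9 genes had at least 54 counts in each library.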

Other observations

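WT replicate 2 and Nfkb2-/- replicate 2 had total counts of 31622131 and 31622146, which differ by 15 counts, although their counts on Mmp8 (6264 and 1216), Mmp12 (52671 and 128145) and Timp2 (2357 and 908) differed widely.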
